A study of Mus musculus with 20 samples.

Results

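Of 11943 regions with a Suz12 peak in mouse embryonic stem cells, 497 carried a peak in both libraries of cells treated for 12 h with DRB and in none of the other 6 Suz12 peak lists of the study, including the lists of triptolide-treated cells. The sites were chosen by the deposited peak calls in 2 steps: all peaks of the 8 lists that overlapped by at least 1 bp were merged into regions, and a region was kept when its peaks came from the DRB 12 h lists alone. The reads deposited with the peaks gave the level of Suz12 in every library, whether or not a peak had been called there. By those levels, most of the 497 sites also held more Suz12 reads after triptolide. The median log2 change was 0.52 under DRB and 0.33 under triptolide. Peak calls in the same libraries chose the sites, so neither the direction nor the smaller triptolide change is read as a result. The sites were narrow (median 889 bp), low in level, and at least 264 of them contained the start site of a protein-coding gene.

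The cells were of the mouse embryonic stem cell line E14, wild type, cultured on gelatin in serum medium that contained LIF. Transcription was inhibited with 100 µM DRB for 0 or 12 h or with 10 µM triptolide for 0 or 9 h, and chromatin was immunoprecipitated with an antibody against Suz12. The 4 groups had 2 libraries each, described by the submitters as biological replicates, and all groups shared the cell line and its genotype. The other 12 of the 20 samples in the series were not analysed here. Each drug had its own untreated libraries, and dose and time differed between the drugs, so the responses are set side by side. The 8 libraries were of unequal depth, from 1323926 reads over all regions (DRB 0 h) to 7340023 (DRB 12 h). The labels of the read columns put untreated and treated libraries on different sequencing lanes, so lane and treatment cannot be told apart. A ChIP experiment gives no expression with which to check the cell type. Among genes that mark pluripotent cells, Pou5f1, Nanog, Zfp42 and Esrrb had no Suz12 region at an annotated end, Klf4 had 1 and Sox2 had 2.

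Suz12 belongs to the core of PRC2, the Polycomb complex whose product is histone H3 methylated at lysine 27. In embryonic stem cells PRC2 is found mainly at CpG islands of silent developmental genes, and active CpG islands carry little of it. DRB inhibits CDK9, the kinase that releases paused RNA polymerase II into elongation. Triptolide targets XPB, a subunit of the initiation factor TFIIH, and so acts at an earlier step of transcription.

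At least 264 of the 497 sites contained a start, and 5 of their promoters are printed here to show a range of CpG content. They were picked by hand and do not represent the whole. In windows of 300 bases, the promoters inside the sites had a median of 26 CpGs with quartiles of 18 and 33.75. The windows of Lin28a and Zfp710 had 10 and 4. Junb was the site with the highest level under DRB, Src and Zfp710 stand for CpG-rich and CpG-poor starts, Rbl1 had a high level after either drug, and Lin28a was the only site at a gene of the pluripotency list. Each sequence is the 250 bases before the annotated start, 5′ to 3′ on the gene's strand, with every CpG dinucleotide in capitals, from RefSeq on GRCm38.p6. The windows were chr8:84978749-84978998 on the minus strand, chr2:157424043-157424292 on the plus strand, chr2:157204535-157204784 on the minus strand, chr4:134018817-134019066 on the minus strand and chr7:80024564-80024813 on the plus strand.
Junb: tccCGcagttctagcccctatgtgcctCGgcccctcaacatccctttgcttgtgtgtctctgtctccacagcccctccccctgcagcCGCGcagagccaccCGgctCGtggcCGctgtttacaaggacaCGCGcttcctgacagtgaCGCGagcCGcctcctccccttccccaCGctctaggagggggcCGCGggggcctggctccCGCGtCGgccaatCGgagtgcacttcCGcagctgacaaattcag
Src: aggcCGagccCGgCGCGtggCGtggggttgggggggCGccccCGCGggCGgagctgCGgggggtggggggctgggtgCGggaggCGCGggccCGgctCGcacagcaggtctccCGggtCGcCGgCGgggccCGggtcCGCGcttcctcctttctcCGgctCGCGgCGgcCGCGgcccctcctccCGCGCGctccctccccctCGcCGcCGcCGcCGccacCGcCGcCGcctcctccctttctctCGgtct
Rbl1: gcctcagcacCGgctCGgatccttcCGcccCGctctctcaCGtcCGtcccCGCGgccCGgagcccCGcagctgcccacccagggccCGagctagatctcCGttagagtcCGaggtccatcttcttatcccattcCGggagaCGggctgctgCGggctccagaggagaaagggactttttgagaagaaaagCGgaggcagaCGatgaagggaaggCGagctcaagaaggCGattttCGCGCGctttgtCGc
Lin28a: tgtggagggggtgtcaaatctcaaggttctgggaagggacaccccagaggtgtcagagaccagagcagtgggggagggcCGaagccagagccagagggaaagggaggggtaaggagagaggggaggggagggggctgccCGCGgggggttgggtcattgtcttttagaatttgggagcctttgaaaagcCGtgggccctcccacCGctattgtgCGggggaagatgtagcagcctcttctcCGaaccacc
Zfp710: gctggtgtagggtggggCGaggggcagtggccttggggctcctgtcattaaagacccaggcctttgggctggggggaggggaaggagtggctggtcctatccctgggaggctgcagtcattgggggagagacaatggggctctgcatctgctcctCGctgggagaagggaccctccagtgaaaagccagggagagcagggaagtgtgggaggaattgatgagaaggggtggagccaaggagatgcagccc
The capitals number 20 in Junb, 40 in Src, 24 in Rbl1, 7 in Lin28a and 2 in Zfp710. The Src stretch is a dense run of CpGs, whereas that of Zfp710 is GC-rich with hardly any CpG. The start sites of all 5 genes lay inside their regions.

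Suz12 reads at the 497 sites were expressed as CPM, reads per 1000000 counted over all regions after TMM scaling, and as CPM per kb of the widest peak. They took 0.692% ± 0.0456 (SD, n = 2) of the region reads in DRB 0 h libraries and 1.10% ± 0.0161 (SD, n = 2) at DRB 12 h. In triptolide libraries the share was 0.636% ± 0.0342 (SD, n = 2) at 0 h and 0.914% ± 0.0491 (SD, n = 2) at 9 h. Both treated libraries of each drug lay above both of its untreated ones. The median site held 13.1 and 14.1 CPM in the DRB 0 h libraries with index ATCACG and TGACCA, and 20.0 and 18.7 CPM in the DRB 12 h libraries with those indexes. It held 12.6 and 13.0 CPM in triptolide 0 h replicates 1 and 2, and 16.5 and 15.8 CPM in triptolide 9 h replicates 1 and 2. The order of the groups was thus both untreated groups lowest, triptolide 9 h between, and DRB 12 h highest. Peak calls under DRB chose these sites, and the absence of calls under triptolide did too, so levels and changes at them are a description and carry no test.

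Per kb of peak, the median levels of the 497 sites were 15.2 CPM before and 21.8 after DRB, and 14.1 before and 17.9 after triptolide. Regions with peaks in all 4 treated lists and no untreated list (n = 1065) started from nearly the same level, 15.9 and 16.0 CPM per kb in the DRB and triptolide 0 h groups, and reached 28.5 in both treated groups. Regions with peaks in all 8 lists (n = 4281) held 58.1 CPM per kb before and 49.8 after DRB, and 59.4 before and 48.6 after triptolide. The sites called under DRB alone were therefore near the untreated level of the regions gained under both drugs and well under the level of constitutive Suz12 regions. Their median width of 889 bp (range 382 to 2184) compares with 1451 bp for regions gained in all 4 treated lists, 2314 bp for those in all 8 lists and 1311 bp over all regions.

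**Figure D1:**
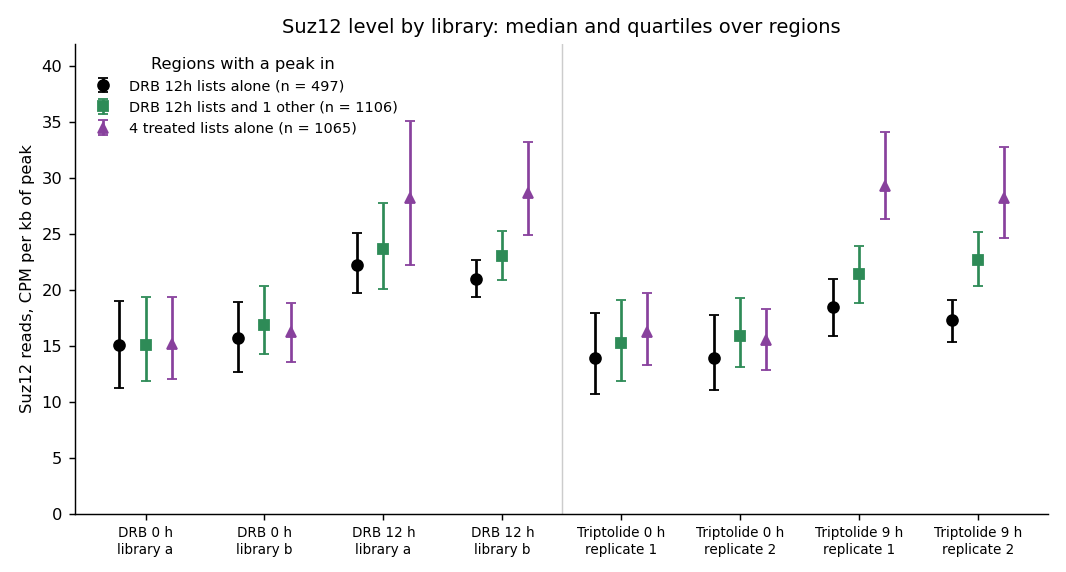
Suz12 level in each of the 8 libraries (y axis, CPM per kb of peak), shown as median (point) and quartiles (bars) over 3 sets of regions; libraries a and b of the DRB groups are those with index ATCACG and TGACCA. The 497 sites (black) have medians of 22.3 and 21.0 in the DRB 12 h libraries, 18.5 and 17.3 in the triptolide 9 h libraries and 15.7 or less in the 4 untreated libraries.

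The neighbouring sets show how close the sites lie to the rule's limit. Another 1106 regions had a peak in both DRB 12 h lists and in exactly 1 of the other 6, and for 1059 of these (95.8%) that other list was triptolide 9 h replicate 2, which holds 10005 peaks against 7153 in replicate 1. Those regions held 16.0 and 23.4 CPM per kb before and after DRB, and 15.5 and 21.9 before and after triptolide. They were 1022 bp wide at the median, with median log2 changes of 0.53 under DRB and 0.49 under triptolide. Just inside and just outside the rule, the DRB values were thus 0.52 and 0.53, and the triptolide values were 0.33 and 0.49. The opposite pattern, a peak in both triptolide 9 h lists alone, was found at 12 regions. The DRB 12 h lists were the longest, with 10929 and 10492 peaks, and the untreated lists held 5116 to 6886.

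The change at each region was estimated with edgeR's quasi-likelihood fit over all 11943 regions and is given as a log2 change with its standard error (SE). The DRB changes at the 497 sites ran from -0.68 to 2.13 with quartiles of 0.20 and 0.78, and 437 were above 0, beside 6295 of all regions. The triptolide changes ran from -0.97 to 1.88 with quartiles of 0.04 and 0.61, and 391 were above 0, beside 6162 of all regions. Both changes were above 0 at 381 sites, and the median over all regions was 0.05 under DRB and 0.03 under triptolide. With edgeR, 128 sites (25.8%) were higher under DRB at an adjusted p under 0.05 and 0 were lower, beside 18.1% higher and 19.2% lower among all regions. The unadjusted edgeR p was under 0.05 in either direction at 194 of the 497, beside 5739 of all 11943 regions. Under triptolide, 80 (16.1%) were higher and 4 lower, beside 19.3% and 21.9% of all regions. Since peak calls in the same libraries chose the sites, nothing is read from these shares.

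By the same call, 59 sites were higher under both drugs, 69 under DRB and not triptolide, 21 under triptolide and not DRB, and 348 under neither. This overlap was not counted over all regions. The rule asked for peaks under DRB and none under triptolide, so the balance between the drugs in this paragraph is not read as a result. Of the 128 higher under DRB, 126 had a triptolide change above 0, with a median of 0.68. The larger of the 2 changes was that under DRB at 359 sites and that under triptolide at 138, and the median difference was 0.19. Over all 11943 regions the DRB change was the larger at 6640, with a median difference of 0.04. No site had a difference between the drugs past the adjusted threshold in edgeR (0.0167% of all regions did) or in DESeq2. At an unadjusted p under 0.05, edgeR gave 8 sites, beside 193 of all 11943 regions. All 8 had the larger change under DRB. The median SE was 0.28 for either change and 0.40 for their difference, so a difference of the size of the median lay under what these libraries resolve at a single site. Across the 497 sites the changes had a Pearson correlation of 0.74 and a Spearman correlation of 0.72. This is a correlation over sites whose peak widths and library depths are shared, and the Spearman value over all regions was 0.89.

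**Figure D2:**
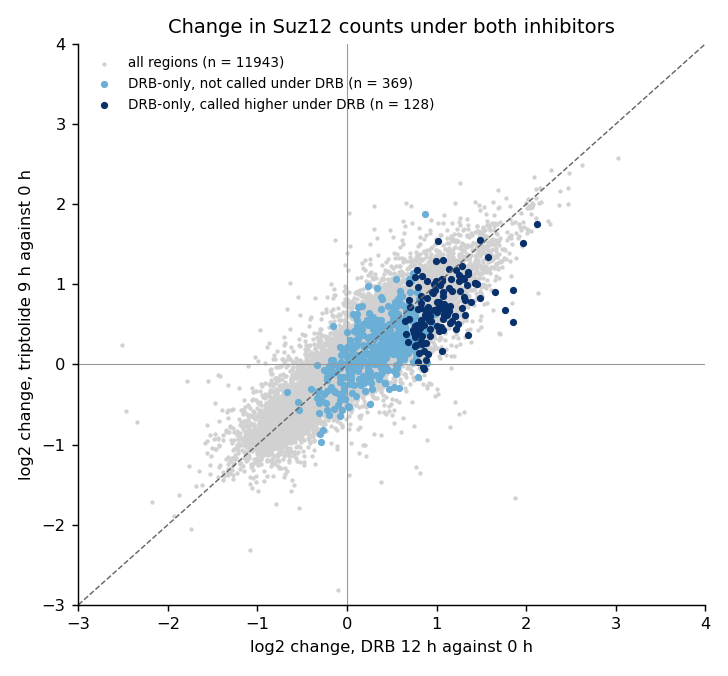
Log2 change under DRB (x axis) and under triptolide (y axis) for all regions (grey) and for the 497 sites, with the 128 called higher under DRB in dark blue and the rest in light blue; the dashed line marks equal change. The sites spread to the right of 0 and lie mostly below the line, with 359 of the 497 changing more under DRB. Among all 11943 regions, 6640 changed more under DRB.

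Library by library, both DRB 12 h libraries were above both DRB 0 h libraries in CPM at 343 sites, and below both at 16, beside 35.2% and 31.9% of all regions. Both triptolide 9 h libraries were above both 0 h libraries at 266 sites and below both at 40, beside 38.4% and 37.5%. All 4 treated libraries were above all 4 untreated ones at 175 sites, beside 24.4% of all regions. The counts behind a site were small: the median site held 16 and 60 reads in untreated and 50 and 149 in treated libraries of the DRB series, and 36 to 78 reads across the triptolide series. All of these changes depend on the scaling. When TMM factors were taken from the regions of all 8 lists, the median over all regions moved to 0.38 under DRB and 0.43 under triptolide, and that of the 497 sites to 0.84 and 0.73. The share of calls over all regions that were higher moved with it, from 48.4% to 87.3% under DRB and from 46.9% to 88.9% under triptolide.

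The 12 sites with the highest DRB 12 h level that had a gene end within 1 kb are described first. Junb encodes an AP-1 transcription factor of the immediate early class, and its region (chr8:84976995-84979154) covered the start. It held 24.7 and 26.1 CPM at DRB 0 h, 106 and 81.2 at DRB 12 h, 24.9 and 27.8 at triptolide 0 h, and 41.3 and 34.8 at triptolide 9 h. The raw counts were 30, 111, 266 and 646 reads in the DRB libraries and 87, 77, 195 and 167 in the triptolide libraries. Both DRB 12 h libraries stood far above the other 6, and the triptolide 9 h pair stood above every untreated library. The log2 change was 1.86 ± 0.20 (SE) under DRB and 0.53 ± 0.20 (SE) under triptolide. Their difference of 1.33 ± 0.29 (SE) was the largest among the 497 sites.

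Etv6 encodes an ETS-family repressor, and its region (chr6:134034620-134036738) held 22.2 and 26.6 CPM at DRB 0 h, 44.4 and 59.9 at DRB 12 h, 22.9 and 23.1 at triptolide 0 h, and 36.2 and 34.6 at triptolide 9 h. Skil encodes SnoN, a repressor of Smad-dependent TGF-beta signalling, and an annotated end of the gene lay in its region (chr3:31093105-31096036). It held 17.3 and 21.9, 53.2 and 38.2, 14.3 and 14.8, and 32.6 and 23.7 CPM in the same order of groups. At both genes the treated libraries of each drug lay above its untreated ones without overlap. The log2 changes under DRB and triptolide were 1.08 ± 0.21 and 0.62 ± 0.21 (SE) at Etv6, and 1.14 ± 0.25 and 0.95 ± 0.25 (SE) at Skil. Bcl3, a nuclear IκB family protein, had changes of 1.32 ± 0.27 and 0.81 ± 0.28 (SE). Ing1, a PHD finger subunit of a Sin3 histone deacetylase complex, had 1.14 ± 0.30 and 0.67 ± 0.30 (SE).

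Among the 12 were 3 protein kinase genes. Src, the membrane-anchored tyrosine kinase whose CpG-dense promoter is printed above, held 16.4 and 18.6 CPM at DRB 0 h, 48.8 and 26.6 at DRB 12 h, 11.2 and 14.1 at triptolide 0 h, and 19.3 and 21.2 at triptolide 9 h. The DRB 12 h libraries of Src differed widely between themselves, yet both lay above all the others. Srpk1, which phosphorylates SR splicing factors, held 13.1 and 16.5, 40.4 and 34.4, 14.9 and 18.8, and 31.1 and 32.1 CPM in that order. Its treated libraries were close together and its log2 changes were 1.27 ± 0.23 and 0.91 ± 0.22 (SE). Tnk2, a cytoplasmic tyrosine kinase, had 0.92 ± 0.20 and 0.61 ± 0.20 (SE).

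The rest of the highest sites varied more. Cacng7, an auxiliary subunit of AMPA receptors, held 17.3 and 10.6 CPM at DRB 0 h and 52.0 and 36.2 at DRB 12 h, with a log2 change of 1.76 ± 0.31 (SE). In triptolide libraries it held 16.3 and 13.4 CPM at 0 h and 28.8 and 19.1 at 9 h, with a change of 0.68 ± 0.29 (SE) that did not pass the threshold. Another Suz12 region lay 56 bp from that of Cacng7. Atxn2, an RNA-binding protein, had 0.93 ± 0.26 and 0.36 ± 0.27 (SE), and its triptolide libraries overlapped. Cdc42ep4, an effector of the GTPase Cdc42, had 0.91 ± 0.23 and 0.72 ± 0.23 (SE). B3gnt3, a glycosyltransferase gene, was the exception: it held 42.7 and 47.5 CPM at DRB 0 h and 35.6 and 45.7 at DRB 12 h, although peaks were listed at 12 h alone. Its log2 changes of -0.14 ± 0.24 and -0.33 ± 0.24 (SE) were within the spread of its libraries, and under the scaling to regions of all 8 lists they were 0.19 and 0.07.

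The sites with the highest triptolide change had no triptolide peak inside the region by the rule, and were low in untreated cells. Another Suz12 region lay 2 bp from the Hspb6 site, 8 bp from Zfp710, 49 bp from Slc38a2 and 125 bp from Spry2. For Pebp1 and Trim59 the nearest was 30835 and 80478 bp away. Slc38a2 encodes SNAT2, a sodium-coupled neutral amino acid transporter, and its region (chr15:96698308-96699520) began 208 bp from the start. It held 5.75 and 5.88 CPM at DRB 0 h, 24.8 and 26.3 at DRB 12 h, 5.45 and 7.58 at triptolide 0 h, and 24.3 and 19.4 at triptolide 9 h. Its treated libraries were alike under both drugs, with log2 changes of 2.13 ± 0.30 and 1.76 ± 0.28 (SE). The DRB value was the highest of the 497 sites. Spry2, a Sprouty protein that limits receptor tyrosine kinase signalling, held 7.4 and 6.35, 27.2 and 25.1, 6.88 and 3.97, and 18 and 13.9 CPM, with changes of 1.96 ± 0.32 and 1.52 ± 0.32 (SE). Pebp1, known as the Raf kinase inhibitor protein, had 1.48 ± 0.32 and 1.55 ± 0.32 (SE), and Zfp710, a zinc finger gene, had 1.57 ± 0.31 and 1.34 ± 0.29 (SE). The Zfp710 start is the CpG-poor one printed above, and its changes were close to those of the CpG-rich Pebp1 start, which has 28 CpGs in its 300-base window against 4.

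At Pebp1 the changes were nearly equal, and at the other 2 of the 6 sites the triptolide change was the larger by more than 0.5. The region at Hspb6, a small heat shock protein, and the neighbouring Proser3 held 11.5 and 6.12 CPM at DRB 0 h, 13.6 and 14.8 at DRB 12 h, 3.15 and 4.69 at triptolide 0 h, and 16.7 and 11.9 at triptolide 9 h. Its changes were 0.88 ± 0.37 and 1.88 ± 0.39 (SE), and the treated levels of the drugs were similar while the untreated levels differed. Trim59, a member of the tripartite motif family, had 1.01 ± 0.34 and 1.54 ± 0.35 (SE).

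Of the 6 sites with the lowest triptolide change, the 5 given here held fewer reads after triptolide, with DRB changes from -0.31 to -0.06. Nlrc5, the activator of MHC class I genes, held 26.1 and 20.2 CPM at triptolide 0 h and 12.1 and 11.7 at 9 h, a log2 change of -0.97 ± 0.24 (SE). At DRB 0 h it held 18.1 and 20.0 CPM, and at 12 h 16.8 and 15.1. Nlrc5, a region inside Fgf14 (-0.86 ± 0.26, SE) and one between genes on chromosome 5 (-0.63 ± 0.20, SE) were 3 of the 4 sites called lower under triptolide. Myzap, Gstk1, Elovl3 and the shared region of the heat shock genes Hspa1a and Hspa1l had triptolide changes of -0.64 to -0.57 that did not pass the threshold. With the scaling to regions of all 8 lists, the triptolide change of Nlrc5 was -0.57 and no longer passed the threshold, and the DRB changes of these 5 gene regions turned from negative to between 0.02 and 0.27.

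**Figure D3:**
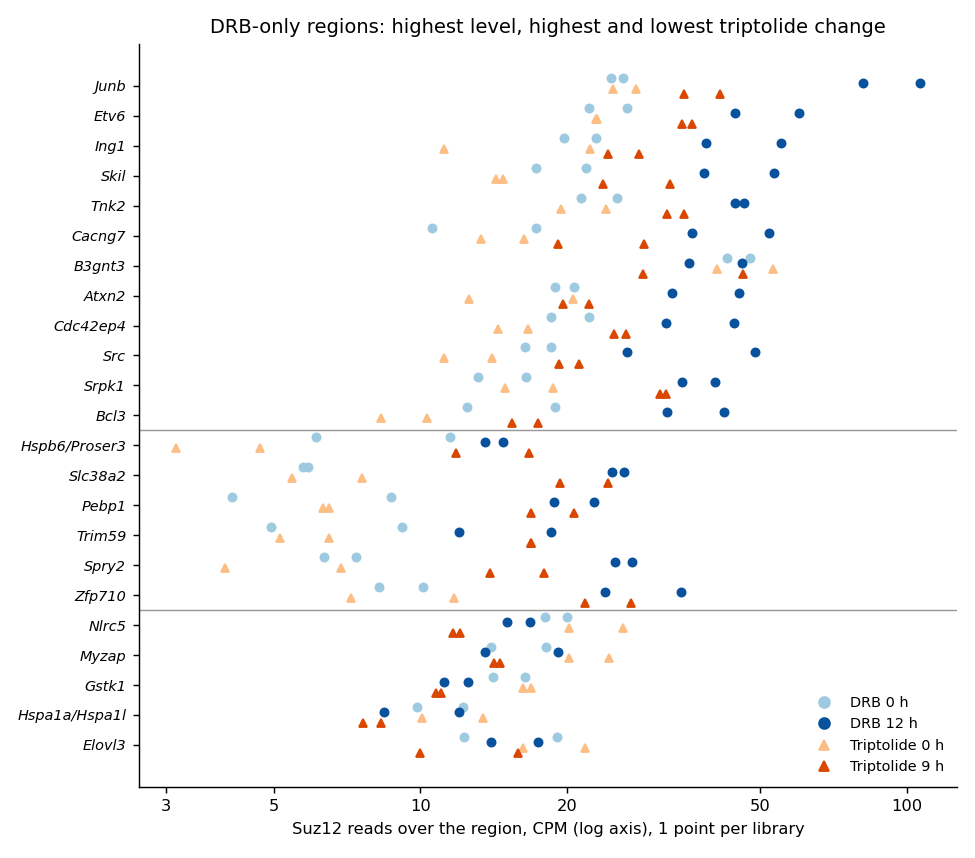
Suz12 level in each library (x axis, CPM on a log scale) at the 12 sites with the highest DRB 12 h level (top), the 6 with the highest triptolide change (middle) and 5 of the 6 with the lowest (bottom), 1 point per library. Junb stands apart with DRB 12 h libraries at 106 and 81.2 CPM, the middle sites have dark points of both drugs to the right of the pale ones, and at the bottom sites both triptolide 9 h points lie left of both triptolide 0 h points.

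Apart from Junb and Cacng7, the 6 other sites with an unadjusted difference between the drugs were at Epha2, Sun2, Kirrel2 with Nphs1, Stau1, Dhrs13 with Flot2, and Inpp5f, named after their values were seen. Epha2 encodes an ephrin receptor tyrosine kinase. Its region held 14 and 14.1 CPM at DRB 0 h, 40.4 and 32.5 at DRB 12 h, 15.2 and 21.7 at triptolide 0 h, and 21.6 and 25.6 at triptolide 9 h. The DRB libraries separated widely and the triptolide libraries overlapped, with log2 changes of 1.35 ± 0.25 and 0.37 ± 0.24 (SE). Sun2, a protein of the inner nuclear membrane, held 18.9 and 17.4 CPM at DRB 0 h, 36.8 and 29.4 at DRB 12 h, 23.5 and 22 at triptolide 0 h, and 22.2 and 21.4 at triptolide 9 h. Its triptolide change was -0.06 ± 0.21 (SE), beside 0.86 ± 0.22 (SE) under DRB. None of these differences passed the adjustment over all regions.

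Genes were then taken from lists of families and pathways by whether either annotated end lay within 1 kb of a site. In all, 398 protein-coding genes had such an end, 1.84% of 21631, and 357 of them had no other Suz12 region at an end. Only 10 of the 398 also had a region of all 8 lists. Among developmental lists there were 0 of 39 Hox genes, 0 of 59 lineage regulators, 0 of 53 Wnt pathway genes and 1 of 43 Nodal, BMP and TGF-beta genes (Skil), of which 39, 53, 34 and 16 had a region of all 8 lists. There were also 0 of 83 ribosomal protein genes, 0 of 51 proteasome subunit genes and 0 of 45 genes of elongation factors and Mediator. At the 1.84% share of all genes, lists of this size would hold few genes or none, so nothing is read from these zeros. The Zfp zinc finger genes had 10 of 397 (2.52%), the solute carriers 5 of 346 (1.45%) and the Tmem genes 5 of 238 (2.10%), all close to the share of all genes. Of the 10 Zfp regions, 3 were called higher under DRB and 3 under triptolide. The shares were 25.8% and 16.1% over the 497 sites, and 18.1% and 19.3% over all regions, so nothing is read from these calls. The median log2 changes of the 10 Zfp regions were 0.56 and 0.36.

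Small lists had 1 to 3 genes each. Among pluripotency factors, 1 of 32 had a site: Lin28a, an RNA-binding protein that blocks let-7 maturation. The Lin28a region (chr4:134017906-134019030) held 11.5 and 7.76 CPM at DRB 0 h, 28.0 and 19.8 at DRB 12 h, 7.45 and 11.6 at triptolide 0 h, and 16.3 and 16.0 at triptolide 9 h. Treated libraries lay above untreated ones for each drug, with changes of 1.38 ± 0.33 and 0.78 ± 0.31 (SE). Among CDK inhibitors and cyclins, 1 of 32 had a site: Rbl1, which encodes the pocket protein p107. The Rbl1 region (chr2:157203640-157205155) held 10.7 and 12.0, 29.6 and 32.7, 11.2 and 15.2, and 27.5 and 25.6 CPM in that order, with changes of 1.43 ± 0.24 and 1.02 ± 0.23 (SE). Its 4 treated libraries lay together, well above the 4 untreated ones.

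Immediate early genes had 2 of 29, Junb and Nr4a1, an orphan nuclear receptor whose changes were 0.52 ± 0.29 and 0.16 ± 0.28 (SE). Polycomb genes had 1 of 37, Pcgf1, a subunit of a PRC1 variant, at 0.11 ± 0.31 and 0.00 ± 0.31 (SE). Other chromatin regulators had 1 of 63, the histone demethylase gene Kdm3b, whose region it shares with Reep2, at 0.83 ± 0.28 and 0.56 ± 0.27 (SE). Genes of the p53 and stress response had 2 of 36, Hspa1a and Sesn1, a p53 target; the Sesn1 region, shared with Cep57l1, had 0.75 ± 0.29 and 0.61 ± 0.28 (SE). The Zbtb zinc finger genes had 2 of 41, Zbtb17 (known as Miz-1) and Zbtb8a; these were called higher under DRB, at 1.00 ± 0.34 and 1.13 ± 0.31 (SE), and neither was called under triptolide. The deubiquitinase gene Usp12 had the reverse order, 0.54 ± 0.24 under DRB and 1.06 ± 0.26 (SE) under triptolide. Rab2a, a GTPase of traffic between endoplasmic reticulum and Golgi, was called higher under DRB at 0.88 ± 0.32 (SE), beside 0.27 ± 0.30 (SE) under triptolide. Another 13 genes named from the lists passed the threshold under neither drug: Eif4e1b, Slc20a2, Slc2a4, Zfp185, Zfp280d, Zfp354c, Ube2cbp, Ube2e3, Rab10, Tmem165, Tmem169, Tmem18 and Kcnn4. Their DRB changes ran from -0.16 (Tmem18) to 0.79 (Slc2a4, the insulin-regulated glucose transporter), and their triptolide changes from -0.26 (Ube2cbp) to 1.04 (Ube2e3, a ubiquitin-conjugating enzyme). With the scaling to regions of all 8 lists the values at Tmem18 under DRB and Ube2cbp under triptolide turned to 0.17 and 0.14.

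Position relative to genes was not used by the rule. A promoter table had entries for the chromosomes of 487 of the 497 sites, and none for the 10 sites on chromosome 18. It listed starts for 17274 of 21631 protein-coding genes. Shares with a start inside are therefore lower bounds, for the sites and for the regions compared with them. A start of a protein-coding gene lay inside 264 of the 487 (54.2%), against 48.4% of all regions and 55.5% of those gained in all 4 treated lists. Either annotated gene end lay within 1 kb of 346 sites (69.6%), against 64.1% of all regions and 71.3% of those gained in all 4 treated lists. A gene overlapped 448 sites (90.1%), against 86.5% of all regions and 94.6% of those gained in all 4 treated lists. On each share the sites lay between all regions and the regions gained in all 4 treated lists. Regions of all 8 lists had 53.5%, 71.3% and 89.0% in the same order, so nearness to genes was not particular to the sites. Regions are not replicates, and no test was made.

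The median change was larger for sites at starts than for sites between genes, without a test of the difference. The 264 with a start inside had median log2 changes of 0.58 under DRB and 0.36 under triptolide, and 247 and 223 of them were above 0. The 33 with a start within 1 kb but not inside had the largest medians, 0.70 and 0.60. For the 77 with a gene end but no listed start within 1 kb the medians were 0.52 and 0.32, and for the 69 inside a gene they were 0.45 and 0.16. The 77 can include starts that the promoter table lacks, as gene ends were not told apart as 5′ or 3′. At Rab2a, an end lay 94 bp away and the nearest listed start 4006105 bp away. The 44 sites between genes had 0.14 and 0.06, with 30 and 26 above 0. Their untreated levels were the highest of these classes, at a median of 14.9 CPM for DRB 0 h and 15.7 for triptolide 0 h against 13.6 and 12.5 at starts, and they reached 17.1 and 15.5 CPM after treatment against 20.7 and 16.2. The farthest of all from a gene end, on chromosome 18 (chr18:76533063-76533765), held 24.7 and 21.9 CPM at DRB 0 h and 11.2 and 16.3 at 12 h, fewer reads under the drug that gave it a peak. The next farthest (chr3:68494217-68495514) went the other way, with changes of 0.89 ± 0.22 and 0.60 ± 0.21 (SE). The other 3 of the 5 farthest from an end of a gene record, on chromosomes 14, 12 and 7, did not pass the threshold under either drug. The one on chromosome 14 lies far from the ends of the Spata13 record but contains an internal start of that gene.

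Peaks at starts were displaced downstream. The centre of the widest peak lay downstream of the start, in the direction of transcription, at 233 of the 264 sites (88.3%), with a median offset of 208 bp and quartiles of 95.4 and 336 bp. Regions gained in all 4 treated lists had their centre downstream at 87.3% with a median of 296.5 bp, and regions of all 8 lists at 80.3% with a median of 306 bp. The narrower width of the 497 sites limits how far a centre can lie from a start inside the region.

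**Figure D4:**
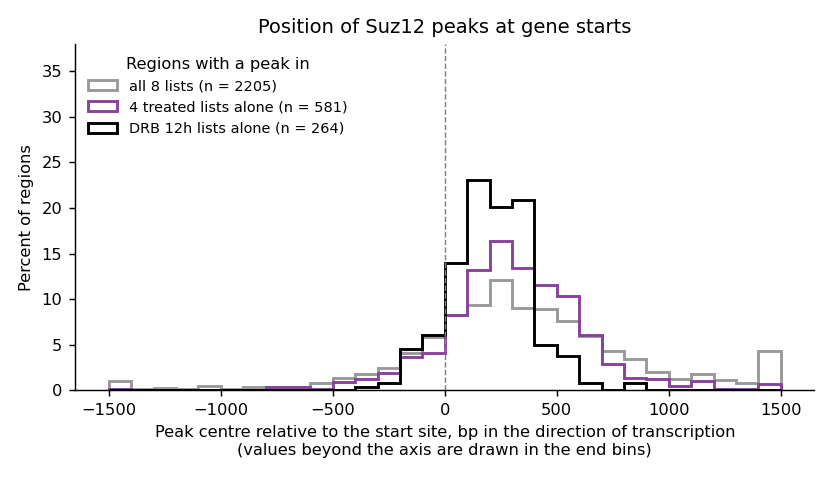
Distance from the start site to the centre of the widest peak (x axis, bp in the direction of transcription) as a percentage of regions with a start inside (y axis), for 3 sets of regions. The 264 sites called under DRB alone (black) form the narrowest curve, with a median of 208 bp downstream, against 296.5 bp for regions gained in all 4 treated lists and 306 bp for those of all 8 lists.

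The starts inside the sites were rich in CpG. The sites held 302 promoters of 273 genes in the table, each a window of 300 bases from 250 before to 50 after the start. These had a median of 26 CpGs (quartiles 18 and 33.75, range 3 to 55), against 13 over all 21045 protein-coding promoters and 7 over those in no Suz12 region. Regions gained in all 4 treated lists had a median of 25 and those of all 8 lists 23. The observed CpG count was at least 0.6 of that expected from base composition at 80.5% of the 302 promoters, against 48.1% of all promoters, 82.1% for the regions gained in all 4 treated lists and 70.9% for those of all 8 lists. Median GC content was 66.0% against 56.7%. Promoters of the sites called higher under DRB and of those not called had medians of 26 and 25 CpGs.

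**Figure D5:**
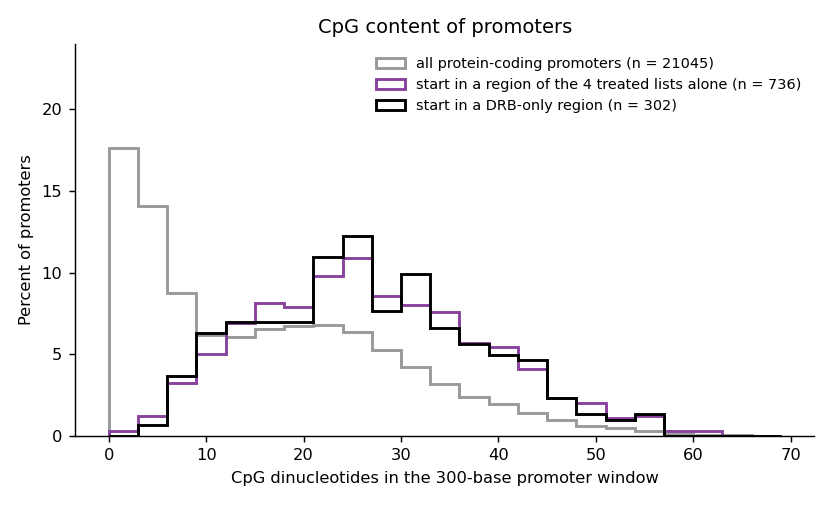
Number of CpG dinucleotides in the 300-base promoter window (x axis) as a percentage of promoters (y axis). Promoters with the start in a site called under DRB alone (black, n = 302, median 26) and in a region gained in all 4 treated lists (purple, median 25) have nearly the same curve, to the right of all protein-coding promoters (grey, median 13).

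Short sequence motifs were searched on both strands of the same windows, as letters alone. The GC box GGGCGG was in 83.1% of the 302 promoters against 46.7% of all promoters, and 70.3% for regions of all 8 lists. The ETS letters CCGGAAG were in 15.2% against 11.7% and 4.15%, and the NRF1 letters (GCGCA, any base, then GCGC) in 11.9% against 6.44% and 2.74%, in the same order. The 302 promoters were thus above regions of all 8 lists in both, and close to regions gained in all 4 treated lists, which had 14.1% and 11.1%. For the GC box, regions gained in all 4 treated lists had 78.7%. The E-box CACGTG was in 10.9% against 7.91% of all promoters, and the CRE letters TGACGTCA in 2.32% against 2.26%. These 5 motifs each contain a CpG and so overlap the CpG count. Without a CpG, the CCAAT box (CCAAT) was in 37.4% against 38.5%, the YY1 letters AAGATGGC in 2.98% against 3.07% and the TATA box (TATAAA) in 2.98% against 12.7%. For these motifs, regions gained in all 4 treated lists had 33.6%, 2.99% and 4.48%, and those of all 8 lists 29.8%, 0.782% and 7.36%. The 300-base window of Junb was among the 9 with the TATA letters, and it had no GC box. Its TATA letters lay wholly in the 50 bases after the start, outside the printed ones. The windows of Src, Rbl1 and Lin28a had the GC box, in the printed bases for Src and Rbl1 and not wholly within them for Lin28a. A match is a description of the letters and does not show that a factor was bound.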

How the data were processed

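Suz12 ChIP-seq of E14 mouse embryonic stem cells gave 8 peak lists, 1 per library. Per the submitters' processing notes the tools named were Bowtie and MACS on mm10 (GRCm38), with versions and settings not given in the sources used here. Per the file headers, each deposited list gives peak intervals with raw read counts in 13 columns, 8 of which were used. The other 5 matched no labelled sample unambiguously and were not used. The DRB columns carry a group and an index but no replicate number. Deposited starts were taken as counted from 0 and are printed from 1.

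Peaks overlapping by 1 bp were merged and each region took the counts over its widest peak. The deposited counts of all 11943 regions and 8 libraries were fitted with edgeR 4.0.16 in R 4.3.3 (quasi-likelihood, 4 groups, TMM scaling, no filter), with Benjamini-Hochberg adjustment over all regions and a threshold of 0.05. The merging rule and the fit were tested on simulated data. Alternatives were DESeq2 1.42.0, other scalings, filters and rules on peaks, and each library left out. Gene ends, start sites, promoter windows and CpG counts came from RefSeq tables on GRCm38.p6, which are not complete; 9 motifs and 28 gene lists were searched. Replicates within groups differed by more than sampling noise (chi-square per degree of freedom 2.47 to 8.65). Member regions and gene lists were chosen with earlier results of these data known. The named sites are the 12 with the highest DRB 12 h level, the 6 highest and 6 lowest in triptolide change (with a gene end within 1 kb, leaving out Gm and Rik symbols), the 5 farthest from a gene end, and up to 3 genes per list. The result at 1 named site is not reported here.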

Additional observations from a re-analysis of the deposited data

How the results depend on the processing

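The number of sites called under DRB alone was 497 with peaks sharing at least 0.5 of the shorter and 460 with peaks closer than 1 kb merged. It was 106 with only peaks at least as wide as the median and 107 with lists held to equal length. With each peak list left out it ran from 498 to 1623: 1042 and 1623 without DRB 12 h replicate 1 and 2, and 1557 without triptolide 9 h replicate 2.

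Over all 11943 regions, higher DRB calls (2156) were 1560 with DESeq2 and 1490 with only the DRB libraries in the fit. TMM over regions of all 8 lists gave 3941. Beside these, sites higher under DRB (128 of the 497) were 65, 62 and 267 in the same order. They ran from 44 to 120 with a library left out: 70 and 44 without the DRB 0 h libraries of index ATCACG and TGACCA, and 84 without triptolide 9 h replicate 1. Over all regions, higher triptolide calls (2307) were 1713 with DESeq2, 3136 with only the triptolide libraries and 3403 with the sum of counts. TMM over regions of all 8 lists gave 4539. Beside these, sites higher under triptolide (80) were 36, 124, 153 and 234 in the same order. They ran from 23 to 118: 27, 34, 23 and 35 without each triptolide library in turn (0 h replicates 1 and 2, then 9 h). Median changes at the sites with the sum of counts were 0.68 and 0.56 under DRB and triptolide, and with TMM over regions of all 8 lists 0.84 and 0.73. With a library left out they ran from 0.45 to 0.56 and from 0.30 to 0.38.

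Over all regions, DRB calls higher and lower (2156 and 2297) were 3941 and 571 with TMM over regions of all 8 lists. Lower calls were 1291 with the sum of counts and 1472 with only the DRB libraries, and the ranges with a library left out were 1089 to 2168 higher and 1203 to 2772 lower. Triptolide calls (2307 and 2611) were 4539 and 567 with TMM over regions of all 8 lists, and 1324 lower with the sum of counts. Their ranges were 1299 to 2947 higher and 1118 to 2999 lower. Regions with a larger triptolide than DRB change (2) ran from 0 to 7. The cause of these shifts was not tested.

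With the replicate block, triptolide calls were 3893 higher and 3767 lower, and 186 of the sites were higher. The deviations of same-numbered triptolide libraries correlated at 0.39, but the number alone does not show a pairing. No paired analysis was possible for DRB because its columns carry no replicate number. A block on the index, chosen after seeing the data, gave 2649 higher and 3041 lower, with 146 sites higher; the deviations correlated at 0.37. By single pair, the median change at the sites was 0.55 and 0.40 for the DRB indexes and 0.36 and 0.28 for the triptolide replicates. The comparison with the DRB 6 h and triptolide 3 h columns was not run.

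Of 102 changes at named sites, 65 kept their direction and side of the threshold with TMM over regions of all 8 lists, 22 passed the threshold newly, 1 no longer passed it and 14 reversed. Under DRB the reversed values were B3gnt3 0.19, Nlrc5 0.0355, Myzap 0.25, Gstk1 0.0172, Hspa1a with Hspa1l 0.10, Elovl3 0.27, Ube2cbp 0.30, Tmem18 0.17 and the site at chr12:104592981 0.33. Under triptolide they were B3gnt3 0.0654, Slc2a4 0.24, Ube2cbp 0.14, Pecr with Tmem169 0.30 and the site at chr18:76533063 0.0508. Sites with a gene end were 63.2% within 0.5 kb and 75.9% within 2.5 kb, and promoters with a CpG ratio of at least 0.75 were 57.0%. Depth limits single sites most in the DRB 0 h library with index ATCACG, where counts at the sites ran from 3 to 56 reads.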

Other observations

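The median distance from a site to the nearest other Suz12 region was 30835 bp, and 108 of the 497 (21.7%) had another within 5 kb, against 24.9% of all regions and 27% of those gained in all 4 treated lists. A region of all 8 lists lay within 5 kb of 22 sites. Between the sites themselves the median distance was 596655 bp, and 13 of the 497 (2.62%) had another site within 5 kb, among them the 3 sites at and near Spry2. Chromosome 7 held the most sites, 50 (10.1% of them, against 7.44% of all regions), and chromosome X held 6.

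Start sites of 2 or more genes lay within 1 kb of 26 sites. The hairpins of 4 annotated miRNAs overlapped a site: Mir5103, Mir7671, Mir7235 and Mir8114, the last at the glutamine synthetase gene Glul. The Mir8114 site had log2 changes of 0.34 under DRB and 0.96 under triptolide, and the Mir5103 site had 0.64 and 0.35. Sites called higher under DRB had a median width of 1061.5 bp against 856 bp for those not called.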
